A study of Mus musculus with 12 samples.

Results

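The locus of Lxn and Rarres1 is a stretch of mouse chromosome 3 in which H3K27ac, the acetylation of histone H3 at lysine 27 that marks active promoters and enhancers, was compared between the embryonic cortex of Prdm16 conditional knockout (cKO) and wild-type (WT) mice. It was taken as chr3:67357999-67615523 (mm10), from 100 kb below the Lxn gene body to 100 kb above that of Rarres1, and every peak in it was used. The 39 peaks that the 6 libraries had there merged into 7 sites, of 85918 merged regions in the whole genome. Lxn and Rarres1 were chosen because earlier work on these data had found longer H3K27ac peaks around them in cKO, so the lengths below are a description and carry no test.

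The tissue was whole cortex of E15.5 embryos, with 3 H3K27ac libraries from each genotype. The cKO embryos were Emx1Ires-Cre; Prdm16flox/flox, and the WT embryos were Prdm16 flox/flox, so both groups were homozygous for floxed Prdm16 and only the cKO group carried Cre. The Prdm16 protein has zinc fingers and acts on chromatin in neural progenitors. Emx1 drives Cre in the progenitors of the dorsal forebrain and their progeny, while interneurons that enter from the ventral forebrain, vessels and microglia come from other lineages and are part of a whole cortex lysate. Nothing in the labels says whether the replicates were separate embryos, litters or pools, so the spread between libraries may be technical. In such bulk chromatin, a larger share of cells with a mark and more of the mark in each cell cannot be told apart. The deposited data are peak lists without read counts, so the sequencing depth is unknown.

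Lxn encodes latexin, an inhibitor of metallocarboxypeptidases that is known in the rodent brain as a marker of neurons of the lateral cortex, claustrum and subplate. Rarres1, also called TIG1, encodes a retinoic acid receptor responder, a membrane protein whose sequence is related to that of latexin. Retinoic acid acts through nuclear receptors that bind response elements in DNA, and its level in a tissue is set by enzymes that make it and by Cyp26 enzymes that break it down. Both genes are read on the minus strand. Lxn (chr3:67457999-67463907) lies wholly within the body of Gfm1, the gene of a mitochondrial translation elongation factor that is read on the plus strand (chr3:67430115-67475068), and its start is 51616 bp from that of Rarres1 (chr3:67478886-67515523). The annotation used gives gene bodies and starts but no exons, so a position can be placed inside or outside a gene but not in an exon, intron or UTR.

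The promoter of Rarres1 is printed because the peak at its start ended at other bases in the 2 genotypes, and that of Lxn as the promoter of the neighbouring gene, most of which lay under a peak in all 6 libraries. Each line gives 250 bases before and 50 bases after the start in the direction of the gene, from RefSeq (GRCm38.p6, minus strand, chr3:67515474-67515773 for Rarres1 and chr3:67463858-67464157 for Lxn). In Rarres1, capitals mark the 68 bases that lay under a peak in all 3 cKO libraries and in no WT library. Those capitals follow the listed edges of weak peaks, whose precision is not known. In Lxn, capitals mark the 278 bases that lay under a peak in all 6 libraries.
Rarres1: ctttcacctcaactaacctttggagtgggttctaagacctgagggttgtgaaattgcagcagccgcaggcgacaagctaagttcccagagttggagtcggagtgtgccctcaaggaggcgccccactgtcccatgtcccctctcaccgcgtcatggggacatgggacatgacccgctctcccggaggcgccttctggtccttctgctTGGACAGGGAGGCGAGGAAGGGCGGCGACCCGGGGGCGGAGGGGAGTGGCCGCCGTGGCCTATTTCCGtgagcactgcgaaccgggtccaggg
Lxn: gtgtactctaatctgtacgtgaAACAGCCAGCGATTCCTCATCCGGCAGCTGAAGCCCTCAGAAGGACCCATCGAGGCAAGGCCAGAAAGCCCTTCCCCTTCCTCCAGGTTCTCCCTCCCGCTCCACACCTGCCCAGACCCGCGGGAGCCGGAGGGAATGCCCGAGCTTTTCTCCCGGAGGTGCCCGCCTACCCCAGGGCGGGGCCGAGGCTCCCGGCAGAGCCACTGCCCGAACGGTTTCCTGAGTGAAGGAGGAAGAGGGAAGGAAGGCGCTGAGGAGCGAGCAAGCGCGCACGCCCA

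Both promoters were rich in G and C. The GC content was 63.3% for Rarres1 and 65.0% for Lxn, at percentiles 78.4 and 81.7 of 32817 RefSeq promoters of the same length, whose median was 52.7%. They held 19 and 21 CpG dinucleotides, against a median of 7.0. The capitals of Rarres1 had a GC content of 75.0% and held both of its matches to the GC box GGGCGG, searched on both strands, a motif found in 35.6% of all promoters and matched 1 time in Lxn. Neither promoter matched AGGTCA, a half-site of retinoic acid receptors, on either strand, against 16.3% of all promoters, nor TATAAA (13.6%). That says only that these exact letters are not in the 300 bases shown. Other forms of the half-site were not searched. Upstream of its capitals, between 124 and 83 bp before the start, the Rarres1 promoter holds a perfect inverted repeat with arms of 14 bases, TGTCCCATGTCCCC and GGGGACATGGGACA, separated by 14 bases. Arms of at least that length with at most 50 bases between them occurred in 60 of the 32817 promoters (0.183%), and the longest arms in Lxn had 7 bases.

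**Figure D1:**
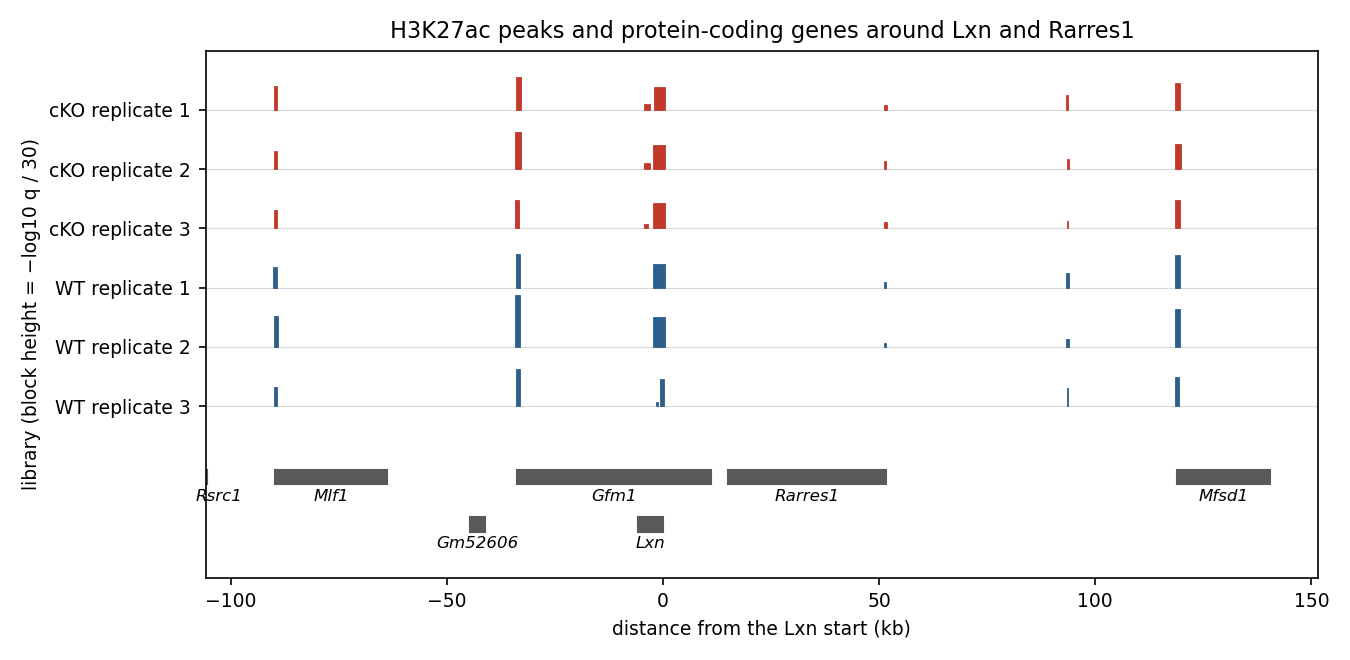
Peaks of each library (blocks, with height giving the authors' -log10 q divided by 30) and protein-coding genes (grey bars), against distance from the Lxn start in kb. The small block 3128 to 4471 bp to the left of the Lxn start is present in the 3 cKO libraries and in no WT library, while WT replicate 3 has another small block closer to the start.

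The peaks in the window covered more bases in cKO. Each cKO library had 7 peaks there and each WT library had 6. The peaks covered 7915, 8466 and 7140 bp in cKO replicates 1, 2 and 3, and 6960, 7079 and 4054 bp in WT replicates 1, 2 and 3. All 3 cKO values were above all 3 WT values, although cKO replicate 3 and WT replicate 2 were close, and WT replicate 3 was far below the other WT libraries. WT replicate 3 was also the library with the least covered length in the genome. Lengths were therefore scaled to the same genome-wide covered length, which multiplied them by 0.998, 1.03 and 1.14 in cKO and by 0.874, 0.79 and 1.35 in WT. The scaled lengths were 7899.8, 8698 and 8172 bp in cKO and 6080.4, 5592 and 5474 bp in WT, with means of 8257 ± 406 bp in cKO and 5716 ± 321 bp in WT (SD, n = 3 each). The ratio of the means was 0.53 on the log2 scale, 0.51 among replicates 1 and 2, and 0.58 in replicate 3, which has its own library identifier. The nearest peak beyond the window was a peak of 161 bp in WT replicate 2, 9.6 kb above it. In the other libraries the nearest peak outside was at least 96.4 kb away. The outermost peaks inside the window lay at least 15.6 kb from its ends.

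The site inside the Lxn body had a peak in cKO libraries only. It spans chr3:67459436-67460779, inside both Lxn and Gfm1, and its near edge is 3128 bp downstream of the Lxn start. Less than 1 kb separates it from the site at the Lxn start. When peaks were merged across gaps of up to 1 kb, both became a single site, with peaks in 3 cKO and 3 WT libraries. The Lxn body site held a peak of 1264, 1319 and 911 bp in cKO replicates 1, 2 and 3, and 0 bp in all 3 WT libraries. Of 85918 regions in the genome, 298 (0.347%) had a peak in all 3 cKO libraries and in no WT library, and 779 (0.907%) the converse. These peaks were weak. Their -log10 q, the authors' own value for each peak, was 3.02, 3.19 and 2.21 in cKO replicates 1, 2 and 3, with fold enrichments of 3.73, 3.73 and 3.59. Between 69.1% and 89.3% of the peaks in the same list had a higher -log10 q. The WT lists reach down to a -log10 q of 1.33, 1.33 and 1.32, and so hold peaks with lower values than these. The sequencing depth is unknown, so a given -log10 q need not stand for the same signal in every library. Signal too weak to be listed as a peak is not in the lists, so its presence at this site in WT was not tested. Of the window's bases, 911 at this site (chr3:67459554-67460464) lay under a peak in all 3 cKO libraries and in no WT library.

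The site at the Lxn start was the longest of the locus, at chr3:67461517-67464435. It covered 2651, 2747 and 2683 bp in cKO replicates 1, 2 and 3, and 2919, 2694 and 1237 bp in WT replicates 1, 2 and 3. As deposited, the groups overlapped, with the longest value in WT replicate 1 and the shortest in WT replicate 3. In WT replicate 3 the site was split into a peak of 862 bp over the Lxn start and one of 375 bp inside the gene, while every other library had a single peak reaching 2239 to 2390 bp into the gene. After scaling for the total covered length, the values were 2646, 2822 and 3071 bp in cKO and 2550.1, 2128 and 1670.4 bp in WT. Scaled, the groups did not overlap, although cKO replicate 1 and WT replicate 1 were close. Of the 39889 regions with a peak in all 6 libraries, 7.94% were longer in every cKO library than in every WT library. The -log10 q of the strongest peak here was 11.8, 12.3 and 12.7 in cKO, and 12.01, 15.0 and 13.95 in WT.

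The site at the Rarres1 start, chr3:67514994-67515647, was short and weak in every library that had it. It covered 574, 573 and 524 bp in cKO replicates 1, 2 and 3, and 403, 433 and 0 bp in WT replicates 1, 2 and 3, so the groups did not overlap, scaled or unscaled. WT replicate 3 had no peak here, and the libraries that had one differed between the genotypes at its outer edge. In cKO replicates 1, 2 and 3 the peak ran past the Rarres1 start and ended 124, 43 and 88 bp upstream of it. In WT replicates 1 and 2 it ended 32 and 25 bp inside the gene, short of the start. The inner edges lay 449, 529 and 435 bp inside the gene in cKO, and 434 and 457 bp in WT, and overlapped between the genotypes. The lists give no precision for a peak edge. Whether the difference at the outer edge exceeds that precision was not tested. The start of Rarres1 thus lay under a peak in 3 of 3 cKO libraries and 0 of 3 WT libraries, which was the case for 9 of 21263 starts of protein-coding genes (0.0423%). The converse was found for 13 starts (0.0611%). A long non-coding RNA gene, Gm40067, starts on the plus strand 274 bp inside Rarres1 and overlaps its first 275 bp. That start lay under the peak in 3 cKO and 2 WT libraries, and the mark carries no strand, so the genes cannot be told apart there. The -log10 q at this site was 2.50, 4.11 and 3.35 in cKO replicates 1, 2 and 3, and 2.87 and 2.12 in WT replicates 1 and 2.

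**Figure D2:**
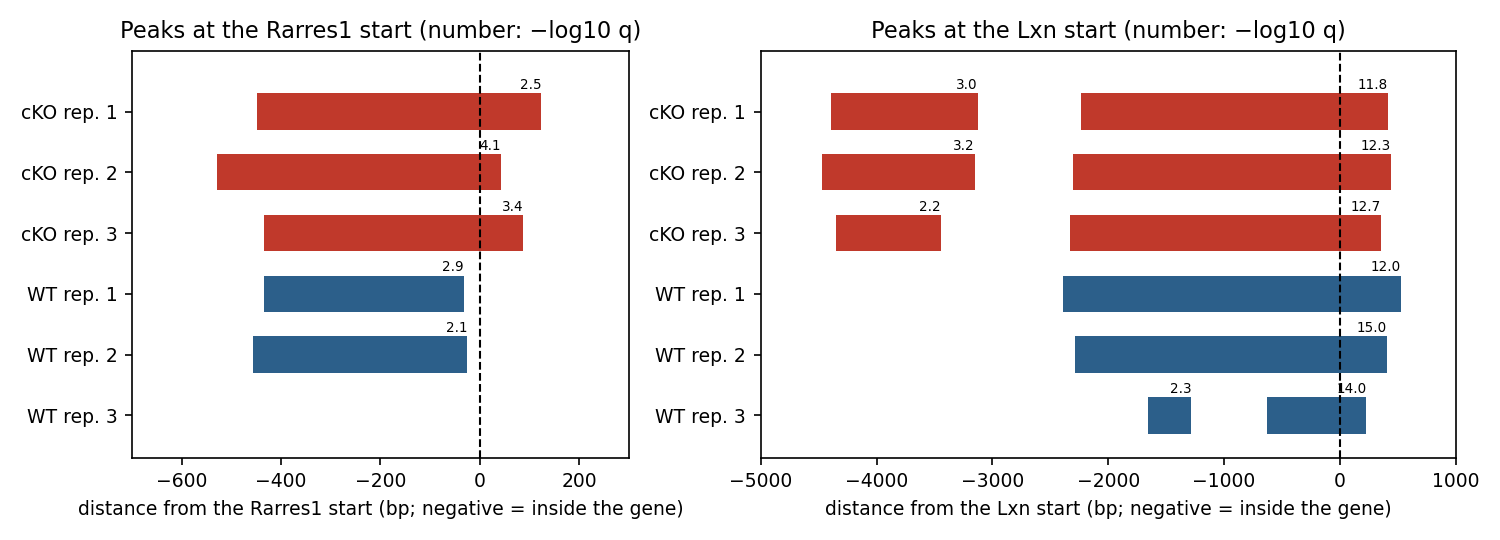
Extent of each peak around the starts of Rarres1 (left) and Lxn (right) in bp, with the start at 0 (dashed line) and negative values inside the gene, 1 row per library and the -log10 q printed at each bar. At Rarres1 the 3 cKO bars cross the start and the 2 WT bars end before it, and at Lxn a separate bar at 3128 to 4471 bp inside the gene is seen in the 3 cKO rows.

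The remaining 4 sites had peaks in all 6 libraries, and their scaled lengths overlapped between the genotypes. The Gfm1 start (chr3:67429643-67430982) covered 1095, 1260 and 1004 bp in cKO, and 937, 966 and 919 bp in WT. These did not overlap as deposited, but after scaling they were 1093, 1295 and 1149 bp in cKO and 819, 763 and 1241 bp in WT, with WT replicate 3 between cKO replicates. The start of Mlf1, a gene named after myeloid leukaemia factor (chr3:67373597-67374787), covered 672 to 715 bp in cKO and 556 to 1058 bp in WT. The start of Mfsd1, a gene of a lysosomal membrane transporter (chr3:67582297-67583672), covered 1060 to 1372 bp in cKO and 931 to 1270 bp in WT. The single site outside protein-coding genes, at chr3:67557174-67557860, covered 286 to 517 bp in cKO and 411 to 658 bp in WT. It is 24908 bp from Mfsd1, and 3745 bp from the start of the long non-coding RNA gene Gm35299. The window's other protein-coding genes, the end of Rsrc1 and the predicted gene Gm52606, had no site. Peak strength did not follow length. At the Mfsd1 start the -log10 q was 13.5, 12.8 and 14.4 in cKO, and 16.4, 19.4 and 14.7 in WT. Every WT library was thus above every cKO library there, also in fold enrichment. At the Gfm1 start the -log10 q was 16.6, 18.8 and 14.5 in cKO, and 17.2, 26.4 and 18.9 in WT. It overlapped between the genotypes there, at the Mlf1 start and at the site outside genes.

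In all, 3 of the 7 sites (Lxn body, Lxn start and Rarres1 start) were longer in every cKO library than in every WT library after scaling, and 0 were shorter. The count of longer sites was 5 without WT replicate 3, where the share over all regions was 18.1%, and 1 site was shorter without that library, without cKO replicate 2 or without cKO replicate 3. Over the genome, with all 6 libraries, 5.41% of the regions were longer and 4.14% shorter by that criterion. When peaks with a -log10 q under 5 were left out, 0 of 5 sites were longer without overlap, since the Lxn body and Rarres1 start sites had no peak of that strength in any library and the Lxn start overlapped. In lists cut to equal length by peak strength, the Lxn body peak stayed in 2 cKO and 0 WT libraries, the Rarres1 start peak in 2 cKO and 1 WT library, and the Mfsd1 start was the 1 site longer without overlap.

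Counted by base, 979 of the 9511 bases covered in any library of the window (10.3%) lay under a peak in all 3 cKO and no WT library, 911 of them in the Lxn body and 68 at the Rarres1 start. The converse applied to 0 bases. Over the genome, 0.39% of the covered bases were of the first kind and 0.801% of the second. The locus was chosen for longer peaks in cKO, so its higher share follows from that choice and is no test. Bases covered in all 6 libraries numbered 3816 in the window (40.1%).

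**Figure D3:**
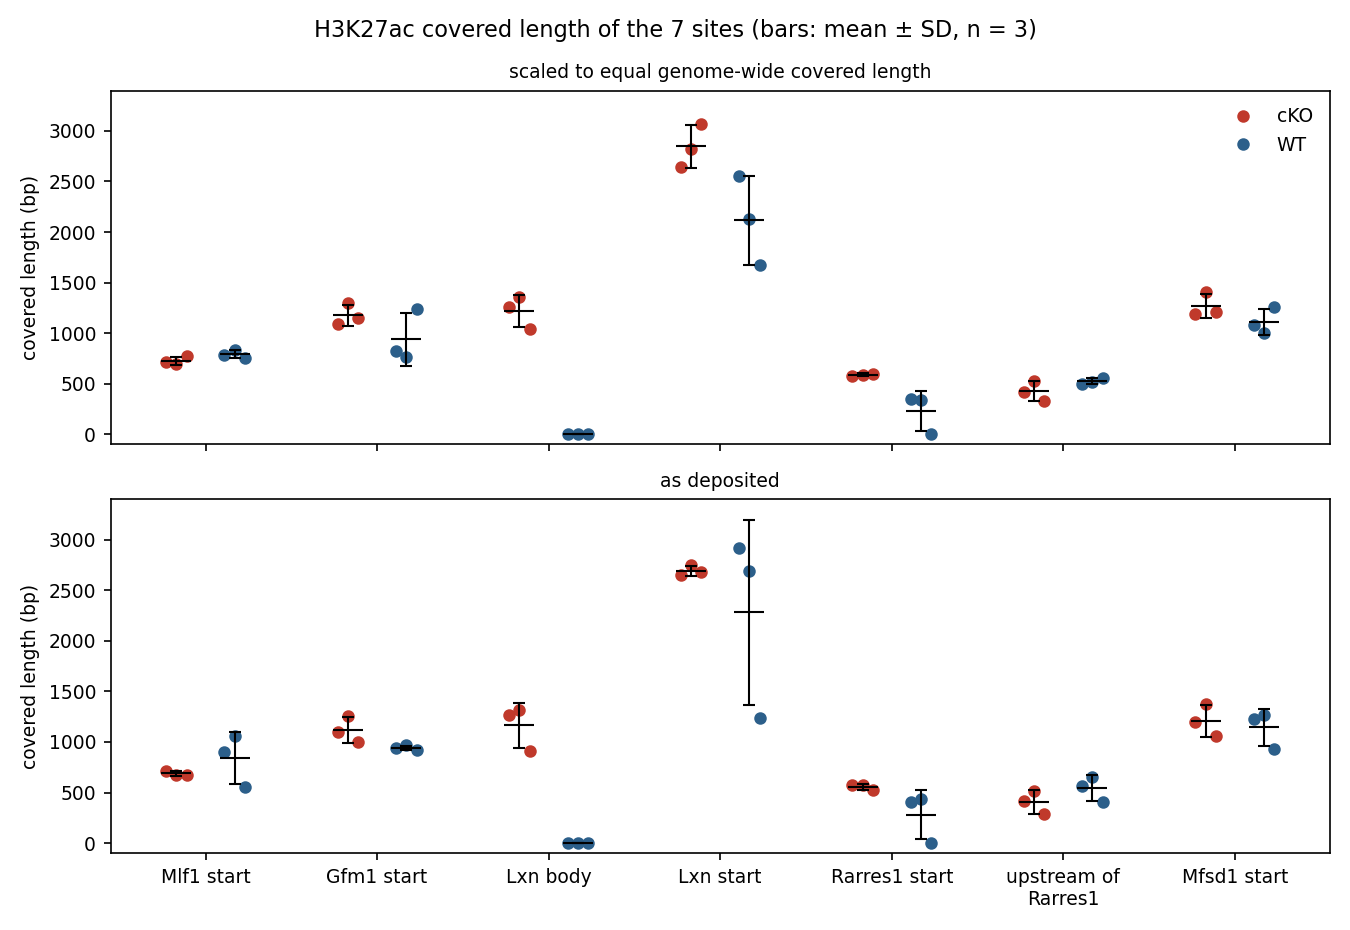
Covered length of each site in bp, scaled (upper) and as deposited (lower), with 1 point per library (cKO red, WT blue) and bars for mean and SD (n = 3 each). The Lxn body and Rarres1 start points separate by genotype in both panels, the Lxn start only after scaling and the Gfm1 start only before it.

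Per gene, H3K27ac was summed as the covered length from 20 kb before to 20 kb beyond each gene body, scaled to the same genome-wide covered length in every library. Lxn had 3907, 4177 and 4114 bp in cKO and 2550.1, 2128 and 1670.4 bp in WT. Rarres1 had 4480.4, 4766 and 4713 bp in cKO and 2902, 2470.3 and 1670.4 bp in WT. Neither gene's groups overlapped, and WT replicate 3 was the lowest for both. On the scale of log2(covered length + 500 bp), the cKO minus WT difference was 0.82 ± 0.12 for Lxn and 0.88 ± 0.13 for Rarres1 (SE, limma), against a median of 0.05 over all 15359 genes tested. Of those, 106 passed at an adjusted p under 0.05 (0.69%), 57 of them longer in cKO (0.371%) and 49 shorter (0.319%). Both genes were chosen on this contrast, so no p is given for them.

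Lxn and Rarres1 did not give separate readings. Their windows share 25.0 kb, which hold the Lxn body and Lxn start sites. Of the Rarres1 difference of 2306 bp (scaled), the Lxn body site gave 52.9%, the Lxn start site 31.7% and the site at the start of Rarres1 itself 15.4%. For Lxn the body site gave 62.6% and the start site 37.4%. Gfm1, whose window holds the same sites, had 5245 ± 236 bp in cKO and 3057 ± 270 bp in WT (SD, n = 3 each), with 10.9% of its difference from its own start. Among tested genes outside the locus, those with profiles over the 6 libraries nearest to that of Rarres1 were Polr3b, Insyn2a, Vstm4, Gstm6 and Relb, at root mean square differences of 0.12, 0.13, 0.14, 0.14 and 0.14 on the centred log2 scale. Lxn was at 0.06.

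Further along the chromosome most genes did not pass. Within 2 Mb of the window, 23 protein-coding genes had windows that did not overlap those of Lxn or Rarres1, and 20 were tested. Their median log2 change was 0.04, with 11 positive and 8 negative. Passing were 2, both longer in cKO, namely Ptx3, which encodes a secreted pentraxin of innate immunity, and Veph1, whose body contains it. Over all genes tested, 0.371% were called longer. The Veph1 window holds the whole Ptx3 window, so these 2 calls are not separate readings. Ptx3 had 6501 ± 905 bp in cKO and 2249 ± 519 bp in WT (SD, n = 3 each), a log2 change of 1.36 ± 0.14 (SE, limma adjusted p = 0.000865). Its call was lost without cKO replicate 3 or WT replicate 3 and without scaling (limma adjusted p = 0.107, 0.114 and 0.316), within a range of 1.1e-10 to 0.316 over its alternatives. Veph1 had a log2 change of 0.78 ± 0.12 (SE, limma adjusted p = 0.0129), and lost its call in 6 of 16 alternatives (0.000362 to 0.701). Between them and the Lxn locus, Rsrc1, a gene of a splicing-related protein, had 1704 ± 566 bp in cKO and 2096 ± 251 bp in WT (SD, n = 3 each, log2 change -0.26 ± 0.15, SE, limma adjusted p = 0.638). On the other side of Rarres1, Mfsd1 had a log2 change of 0.14 ± 0.12 (SE, limma adjusted p = 0.768).

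**Figure D4:**
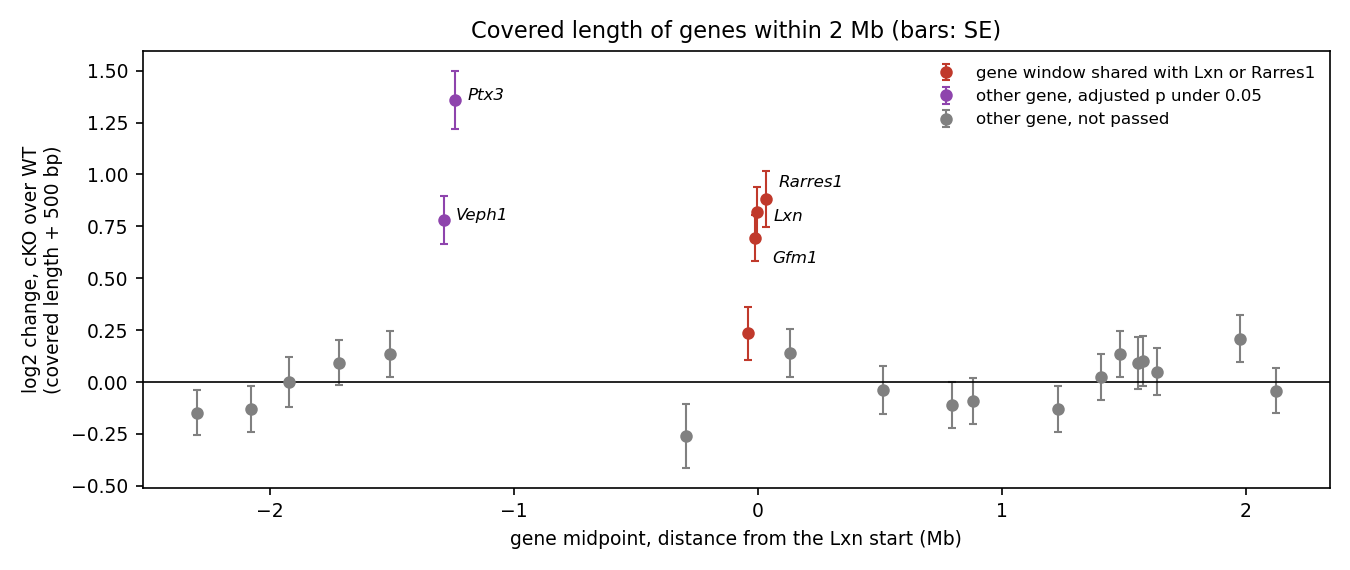
Log2 change in covered length (cKO over WT, with 500 bp added; bars, SE) of the tested genes within 2 Mb of the window, against the distance of the gene midpoint from the Lxn start in Mb. Lxn, Rarres1 and Gfm1, which share sites, lie between 0.69 and 0.88, and apart from Ptx3 (1.36) and Veph1 (0.78) the other tested genes lie between -0.26 and 0.23.

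Genes of retinoid signalling and of metallocarboxypeptidases, a class of enzymes that includes targets of latexin, were then read from the same fit. Of 23 retinoid signalling genes, 17 were tested, 1 was longer in cKO, 0 were shorter, and the median log2 change was 0.04. Over all genes tested, 0.371% were called longer and 0.319% shorter. At an unadjusted limma p under 0.05 there were 3 of the 17, against 9.95% of all genes. The 1 that passed was Cyp26b1 (chr6:84571414-84593908), which encodes an enzyme that degrades retinoic acid. Its scaled covered length was 3541, 2972 and 4131 bp in cKO replicates 1, 2 and 3, and 914, 1852 and 217 bp in WT replicates 1, 2 and 3. All 3 cKO libraries were above all 3 WT libraries, and WT replicate 2 was far above WT replicate 3. The log2 change was 1.59 ± 0.27 (SE, limma adjusted p = 0.0234). The call was lost in 6 of the 14 alternatives in which the gene was tested, including those without cKO replicate 3, WT replicate 2 or WT replicate 3 (limma adjusted p = 0.188, 0.0541 and 0.196), without scaling (0.723), with a pseudocount of 100 bp (0.103) and with scaling over gene windows (0.0907), within a range of 7.78e-07 to 0.723. Cyp26b1 was not among the genes tested when peaks with a -log10 q under 5 were left out, or with 2 kb around the gene ends. Emx1, the gene that carries Cre in this allele, lies 594 kb from Cyp26b1 on the same chromosome, so an effect of Prdm16 loss and one of alleles linked to Cre cannot be told apart there. Dhrs3, which encodes a retinaldehyde reductase, had a log2 change of 0.47 ± 0.12 and Rxrg, a retinoid X receptor gene, of 0.60 ± 0.15 (SE), and neither passed (limma adjusted p = 0.107 and 0.11). Cyp26a1 and Cyp26c1 were at 0 bp in all 6 libraries.

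Latexin has its targets among metallocarboxypeptidases, but not every gene on that list need encode one. Of its 23 genes, 20 were tested and 0 passed in either direction by limma, with a median log2 change of -0.02. At an unadjusted p under 0.05 there were 2 of the 20, against 1528 of all 15359 genes (9.95%), so the list was near the share over all genes. The smallest p belonged to the pancreatic carboxypeptidase gene Cpa1, with 2145 bp in cKO and 3624 bp in WT on average (n = 3 each, log2 change -0.65 ± 0.13, SE, limma adjusted p = 0.0517). It was followed by Cpb2 (-0.33) and Cpq (-0.32). Of 14 subplate and claustrum genes, 12 were tested and 0 passed by limma, with 1 of the 12 at an unadjusted p under 0.05, also near the share over all genes, and a median of -0.01. Cplx3, a complexin gene, had the smallest p (-0.31 ± 0.14, SE, limma adjusted p = 0.463), before Moxd1 (0.28) and Synpr (-0.28).

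The labelled tissue was checked with marker genes of the cells a cortex lysate can hold. All 16 genes of the cortical excitatory lineage were covered in every library, for example Emx1 with 18138, 18324 and 18244 bp in cKO and 20582, 25283 and 14663 bp in WT (as deposited), and the lowest value of the list was 8252 bp, for Eomes in cKO replicate 2. The summed scaled covered length of the list was 388.9 to 416.6 kb in cKO and 345.3 to 459.9 kb in WT, and 0 of 16 genes passed. Ventral forebrain and interneuron genes (149.0 to 165.6 kb in cKO, 122.8 to 173.0 kb in WT) and vascular genes (19.8 to 22.0 kb in cKO, 15.8 to 23.6 kb in WT) overlapped between the genotypes, with Nkx2-1 and Tek at 0 bp. Microglial genes had 14.2 to 17.1 kb in cKO and 16.3 to 20.1 kb in WT. The 10 meningeal fibroblast genes did not overlap, with 9.9 to 10.9 kb in cKO and up to 13.8 kb in WT, every WT library being above every cKO library, and Col3a1 and Twist1 being at 0 bp. None of the tested genes in these lists passed by limma (0 of 7 ventral, 0 of 6 vascular, 0 of 6 microglial and 0 of 3 meningeal). Their median log2 changes were 0.15 for ventral, 0.07 for vascular, -0.30 for microglial and -0.01 for meningeal genes. All 7 ventral genes tested had a positive log2 change and 5 of 6 microglial genes a negative one, while 65.3% of all tested genes were positive. Over all 8 lists, 12 of 87 genes tested (13.8%) had an unadjusted p under 0.05, against 9.95% of all genes. The part of such cells in the Lxn and Rarres1 values was not tested. The deposited peak lists held 59209, 58682 and 55015 peaks in cKO, and 66493, 75563 and 48168 peaks in WT, covering 63.6 to 72.9 Mb in cKO and 53.9 to 92.1 Mb in WT, and replicate 3 of both genotypes carried another library identifier than the other 4 libraries.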

How the data were processed

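H3K27ac libraries of whole cortex, 3 cKO and 3 WT, were analysed; 6 input libraries were not analysed here. The chromatin was native and cut with micrococcal nuclease, per the labels' protocols. The tools named are Bowtie2 2.2.8, MACS2 2.1.1, cutadapt and FastQC, with build mm10, per the submitters' processing notes. Their parameters, and whether inputs served as controls, were not given in the sources used here. For each peak the deposited broad peak lists give the authors' -log10 q and -log10 p, a fold enrichment (a ratio) and a score that was left unused. They hold no counts.

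The members and gene lists were chosen with earlier results of these data known. Sites are peaks of the 6 lists merged where they overlapped or touched. Covered length was scaled to the same genome-wide total. For genes (body plus 20 kb, RefSeq GRCm38.p6, 21887 protein-coding), log2(length + 500 bp) was fitted with limma 3.58.1 in R 4.3.3 (library identifier as covariate, mean of at least 1000 bp, Benjamini-Hochberg over 15359 genes). Genes were named by a fixed rule: the members, genes in the window, genes within 2 Mb that passed, up to 3 per list by smallest p, and the 5 with the nearest profiles. Python 3.11.15, numpy 2.4.6, pandas 2.3.3 and matplotlib 3.10.9 were used; the scripts were tested on simulated data.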

Additional observations from a re-analysis of the deposited data

How the results depend on the processing

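The window's log2 ratio of 0.53 was 0.27 when weak peaks (-log10 q under 5) were left out, 0.41 in equal-length lists, 0.38 without scaling and 0.99 with 20 kb beyond the gene bodies, and 0.49 to 0.58 with a library left out. The count of 3 longer sites was 0 without weak peaks (6.19% of all regions) and 1 in equal-length lists (6.37%), and 3 to 5 with a library left out. It was 5 only without WT replicate 3, where 18.1% of all regions were longer by that criterion, against 7.94% to 8.96% without another library and 5.41% with all 6. The count of 0 shorter sites was 1 without cKO replicate 2, cKO replicate 3 or WT replicate 3. Without scaling the count of longer sites was 3 (2.32% of all regions), with the Gfm1 start in place of the Lxn start, and 0 sites were shorter. With peaks merged across gaps of up to 1 kb, 2 of 6 sites were longer (5.54% of all regions) and 0 shorter. The longer ones were the Rarres1 start and the joined site of the Lxn body and Lxn start. The log2 change was 0.46 for both Rarres1 and Lxn without weak peaks, where the Lxn start was the only site left in either gene window. It was 0.62 and 0.57 for Rarres1 and Lxn with a pseudocount of 2000 bp, 0.57 and 0.55 with the gene body plus 100 kb, and 0.56 for Lxn with 2 kb around the gene ends, where Rarres1 was below the filter. With a library left out it was 0.69 to 0.99 for Rarres1 and 0.68 to 0.91 for Lxn. The cause of these shifts was not tested. No direction turned at either gene or over the window in the alternatives run.

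The count of 106 genes was 38 without weak peaks, 58 in equal-length lists, 1 without scaling (797 at an unadjusted p under 0.05), 39 without covariate, 39 and 208 with pseudocounts of 100 and 2000 bp, 23 without the filter, 2 to 232 with a library left out (232, 225 and 2 without cKO replicates 1, 2 and 3, and 83, 6 and 3 without WT replicates 1, 2 and 3), and 42 when scaled over all gene windows, an alternative chosen after seeing the data. The split of 57 longer and 49 shorter was 7 and 16 without the filter, 36 and 22 in equal-length lists and 19 and 23 when scaled over gene windows. The 1 gene called on the fixed lists became 0 without scaling, with a pseudocount of 100 bp, with 2 kb around the gene ends and when scaled over gene windows, 3 with a pseudocount of 2000 bp and with the gene body plus 100 kb, and 0 to 4 with a library left out. Same-numbered libraries had correlations of 0.132, 0.063 and 0.261 between their deviations over genes, and differently numbered ones had -0.225 to 0.167. The 0.261 belongs to replicate 3, which has its own library identifier in both genotypes. WT replicate 2 went more with cKO replicate 1 (0.167) than with cKO replicate 2 (0.063), so the numbers were not taken as pairs. A replicate block gave 168 genes, 2 of them on the fixed lists, and log2 changes of 0.88 for Rarres1 and 0.82 for Lxn. Equal-length lists hold 48168 peaks each.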
